A study of Mus musculus with 10 samples.

Results

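The 9 genes described here encode the machinery that makes, cuts and binds hyaluronan, together with the lubricating proteoglycan lubricin. They were chosen by name, as Has1, Has2, Has3, Hyal1, Hyal2, Cemip, Tnfaip6, Vcan and Prg4, and all 9 were found among the 36047 genes that have transcripts in the files. Poly-A RNA was sequenced from hepatic stellate cells of male C57BL/6 mice, the liver cells that store retinoids beside the sinusoids. Cells labelled quiescent were cultured for 5 h and then kept in starving medium for 4 h, either with recombinant mouse amphiregulin (Areg, 500 ng/mL), which activates the epidermal growth factor receptor, or as controls. Each group had 5 libraries, and both groups shared the 5 h of culture and the starving medium. Whether each library had its own mouse or dish is not in the labels, and the p-values thus reflect the spread among libraries alone, part of which may be technical.

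Hyaluronan is a long unsulfated sugar chain that synthases in the plasma membrane extrude straight into the matrix. Hyaluronidases and the CEMIP proteins cut it into fragments, and link-module proteins such as versican and the product of Tnfaip6 bind it and change how its chains are cross-linked. In liver the chain is made chiefly by stellate cells and cleared from the sinusoids by endothelial scavenger receptors, and its circulating level is used clinically as a sign of fibrosis.

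With Areg, transcripts of Prg4, Has1 and Cemip were higher, while none of the 9 genes was called lower. Prg4 rose 2.04-fold, Has1 1.68-fold and Cemip 1.21-fold. Of the 9 genes, 8 passed the filter on low counts, and 3 of these 8 were called higher and 0 lower by edgeR's quasi-likelihood test at an adjusted p under 0.05, where 8.34% of all 13362 genes tested were called higher and 8.32% lower. DESeq2 called 3 of the 8 higher and 0 lower, where it called 1328 of all 13362 genes higher and 1267 lower. At an unadjusted p under 0.05 the counts were 5 higher and 1 lower. The share of all genes at an unadjusted p is not given here, so those 2 counts have no background to be read against. The median log2 fold change was 0.24 over the 8 genes and -0.0067 over all genes tested. The genes were chosen with earlier results of these data known, so these comparisons with all genes are a description and not a test. In these bulk libraries, a change in the number of cells that express a gene and a change in its RNA per cell cannot be told apart.

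The libraries held 14365027 to 20057962 estimated counts in the Areg group and 10125184 to 17566891 in the control group. The Areg libraries scored -16.5 to -10.6 on the first principal component and controls 1, 2 and 5 scored -5.02 to 0.455, while controls 3 and 4, which had the fewest counts, stood apart with scores of 46.6 and 28.6. Over all genes 1114 were called higher and 1112 lower, and 686 and 678 without Areg library 2. This split was 704 to 464 with a correction for transcript length, 1107 to 704 after each library's trend with length and GC content was taken out, 1158 to 827 with no filter, 322 to 534 on the log2(TPM + 1) scale and 325 to 543 on the log2(TPM + 0.1) scale.

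The defining markers of stellate cells were present. Lrat, which esterifies retinol for storage, had 9.99 ± 0.298 TPM in Areg libraries and 14.1 ± 1.82 TPM in controls (SD, n = 5 each, as for all pairs below), Des 23.4 ± 1.20 and 25.9 ± 2.37 TPM, and Reln 355 ± 7.55 and 404 ± 45.5 TPM. The 11 stellate markers summed to 4441 to 4644 TPM in Areg libraries and 4985 to 5919 TPM in controls, a sum made up mostly of Ecm1, at 3568 ± 83.1 and 4412 ± 451 TPM. Without Ecm1 the sums were 964.7 to 1031 and 962.4 to 1219 TPM and overlapped. Of the 11 markers 3 were called lower, Lrat (edgeR adjusted p = 0.000293), Ngfr (edgeR adjusted p = 0.00627) and Ecm1 (edgeR adjusted p = 0.0134). The other 8 were not called, where 8.32% of all genes tested were called lower. DESeq2 called 0 stellate markers higher and 4 lower, and at an unadjusted p under 0.05 they were 0 higher and 5 lower. By point estimate 2 were higher and 9 lower. Markers of other liver cells were present as well. The 10 endothelial markers summed to 3439 to 3523 TPM in Areg libraries and 3447 to 3849 TPM in controls, with Cdh5 at 1169 ± 29.5 and 1259 ± 88.9 TPM. The 10 hepatocyte markers summed to 2215 to 2683 and 2013 to 3153 TPM, and the 10 macrophage markers to 547 to 592 and 538 to 619 TPM. Of these lists edgeR called 1 endothelial gene lower and 1 hepatocyte gene higher, where it called 8.32% of all genes tested lower and 8.34% higher. DESeq2 called 2 endothelial genes lower and 1 hepatocyte gene higher. At an unadjusted p under 0.05, 3 endothelial genes were lower and 1 higher, and 1 hepatocyte gene was higher. No macrophage gene was called either way by edgeR, by DESeq2 or at an unadjusted p under 0.05. The 8 smooth muscle markers summed to 127 to 138 and 116 to 133 TPM, with Smtn called higher, and without Smtn to 46.9 to 52.2 and 49.6 to 55.6 TPM. Of the 4 tested, 2 were higher and 0 lower at an unadjusted p under 0.05, and DESeq2 called 1 higher and 0 lower. In CPM 2 of these 4 lay wholly above and 0 wholly below the controls, as 7.64% and 7.06% of all genes tested did. The 7 cholangiocyte markers summed to 102 to 119 and 48.4 to 58.9 TPM, nearly all of it Spp1, which was called higher at 105.5 ± 7.62 and 52.0 ± 4.11 TPM. Without Spp1 they summed to 2.37 to 3.55 and 2.20 to 6.67 TPM. Krt19, at 1.03 ± 0.470 and 1.52 ± 1.16 TPM, and Epcam, at 0.270 ± 0.226 and 0.719 ± 0.556 TPM, had lower means with Areg. For both, the highest value was in control 2, at 3.57 and 1.40 TPM. Sox9, at 1.35 ± 0.153 and 0.961 ± 0.286 TPM, had a higher mean with Areg. By edgeR Krt19 and Sox9 were not called and Epcam was not tested, while DESeq2 called 2 genes of this list higher and 0 lower. The part of these cells in the results on the 9 genes was not tested.

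By level per transcript length, Cemip was the most abundant of the 9 genes and Has2 the least. Cemip averaged 114 ± 4.93 TPM in Areg libraries and 96.4 ± 8.80 TPM in controls, and ranked 1537th by mean TPM among 22037 genes with any signal. Hyal2 followed with 47.8 ± 4.23 and 55.2 ± 3.93 TPM. Below them came Tnfaip6 with 15.2 ± 0.376 and 13.6 ± 1.16 TPM, Prg4 with 12.4 ± 2.39 and 6.09 ± 0.752 TPM, and Has1 with 7.07 ± 0.955 and 4.29 ± 0.380 TPM. Vcan and Hyal1 did not separate from each other, at 2.04 to 3.56 and 1.69 to 2.62 TPM in Areg libraries and 2.27 to 3.35 and 2.25 to 3.37 TPM in controls. Tnfaip6 and Prg4 were apart in controls, at 12.2 to 15.2 and 4.87 to 6.77 TPM, but overlapped in Areg libraries, at 14.8 to 15.7 and 9.08 to 15.5 TPM. Has3 had 1.29 ± 0.331 and 0.991 ± 0.310 TPM, and its highest Areg library, at 1.76 TPM, lay just above the lowest Areg library of Hyal1. Has2 stayed at or below 0.301 TPM in every library.

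**Figure D1:**
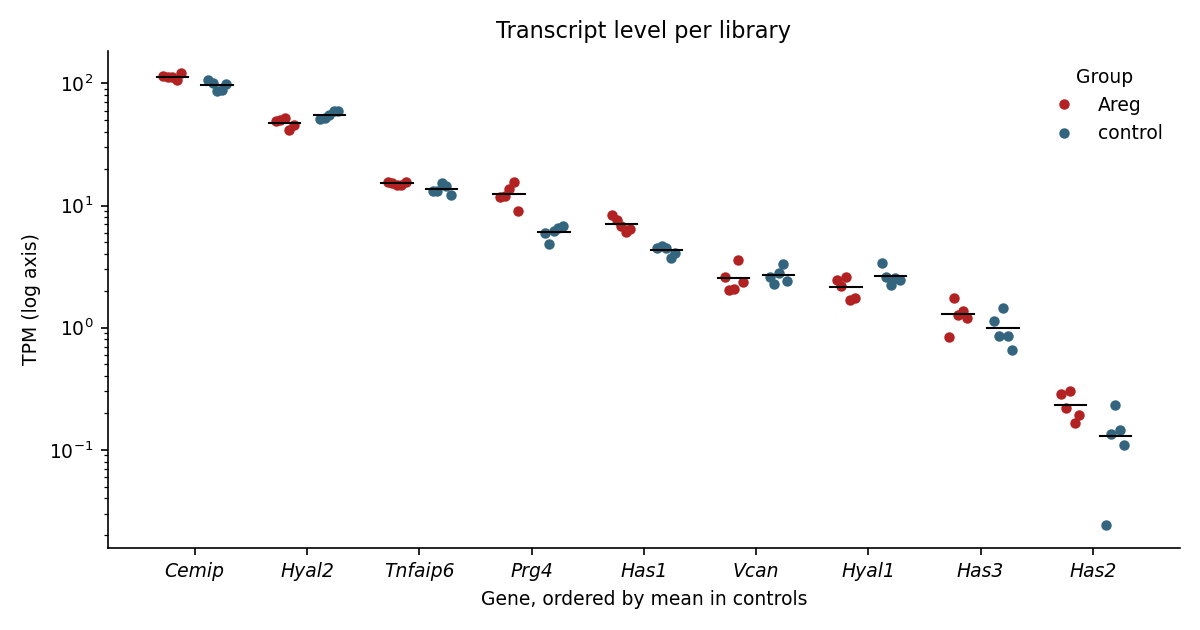
Transcript level in TPM on a log axis for each of the 9 genes in the 5 Areg libraries (left) and the 5 control libraries (right), with the group mean as a bar, genes ordered by their mean in controls. Cemip and Hyal2 lead in both groups, and Has2 is lowest, at 0.233 ± 0.0585 TPM with Areg and 0.129 ± 0.0746 TPM in controls.

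Has1 carried most of the hyaluronan synthase RNA and was the synthase gene called higher. The HAS enzymes join glucuronic acid and N-acetylglucosamine into the chain, and Has1 encodes one of them. Has1 (ENSMUSG00000003665, chromosome 17, 17843323 to 17855205, minus strand, GRCm38) had 10.3, 9.37, 8.37, 7.48 and 7.89 CPM, scaled by TMM, in Areg libraries 1 to 5, against 5.19, 5.55, 5.52, 4.65 and 4.97 CPM in controls 1 to 5. All 5 Areg libraries lay above all 5 controls, as 7.64% of all genes tested did, while 7.06% had all Areg libraries below all controls. Of the 8 tested genes, 3 lay wholly above and 0 wholly below. The means were 8.69 ± 1.16 and 5.17 ± 0.381 CPM, with a log2 fold change of 0.75 (SE 0.11, 95% interval 0.51 to 0.99, edgeR adjusted p = 0.000477), the 103rd largest rise of the 13362. The call held under all 25 alternatives, with log2 fold changes of 0.60 to 0.89. The spliced coding transcript Has1-201 held 92.0 to 98.8% of the gene's estimated counts in Areg libraries and 90.6% or more in controls, and a retained-intron form held the rest.

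The window from 250 bases before to 50 bases after the annotated start of Has1 is shown because the gene was called higher and the window holds a match to a known element, the cAMP response element CRE, spelled TGACGTCA and marked in capitals. It covers chr17:17855139-17855438 on the minus strand (RefSeq, GRCm38.p6), 5′ to 3′.
Has1: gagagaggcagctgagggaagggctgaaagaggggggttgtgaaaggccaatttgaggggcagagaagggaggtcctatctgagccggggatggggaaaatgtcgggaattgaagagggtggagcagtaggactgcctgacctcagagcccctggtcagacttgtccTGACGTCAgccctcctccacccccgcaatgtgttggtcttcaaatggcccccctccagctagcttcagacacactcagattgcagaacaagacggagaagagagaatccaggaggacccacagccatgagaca
The match starts 83 bases before this RefSeq start, which lies downstream of the gene start given above, 17855205. Counted from that gene start, the match lies nearer. CRE letters occur in 1.79% of the 32851 promoter windows of the table. AP-1 letters (TGANTCA, in 7.81% of windows), STAT letters (TTCNNNGAA, 8.30%), TEAD letters (GGAATG, 14.7%), EGR letters (GCGNGGGCG, 5.55%), TATAAA (13.6%), the SRF CArG box (1.63%) and the NF-kappaB motif (8.46%), each searched on both strands, had no match in this window. A match describes letters and is not evidence of binding.

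Has3 was not called and Has2 was near the limit of detection. Has3, another synthase (chromosome 8, 106870242 to 106884566), had 3.02, 4.25, 3.88, 3.85 and 4.11 CPM in Areg libraries 1 to 5 and 3.66, 2.54, 2.91, 2.79 and 2.34 CPM in controls 1 to 5. The groups overlapped because control 1 lay above Areg library 1. Has3 had a log2 fold change of 0.42 (SE 0.16, 95% interval 0.082 to 0.75, edgeR adjusted p = 0.0812), and without control 1 it was 0.54 and was called (edgeR adjusted p = 0.0302). On the TPM scale, which follows the estimated mix of Has3 transcripts of unequal length, the log2(TPM + 1) difference was 0.20. Part of Has3 overlaps Chtf8 on the opposite strand, so without a stated strand setting its value is uncertain.

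Has2 encodes the synthase known for long chains and is needed for heart development in mouse. Has2 (chromosome 15, 56665627 to 56694539) had 13, 11, 15, 6 and 9 estimated reads in Areg libraries 1 to 5, against 1, 5, 6, 4 and 4 reads in controls 1 to 5, and did not pass the filter. After TMM scaling these reads gave 0.593 ± 0.144 and 0.328 ± 0.196 CPM, with control 3 at 0.602 CPM inside the Areg range. With no filter the log2 fold change was 0.96 (SE 0.48, edgeR adjusted p = 0.238 over 21875 genes), so a difference was not detectable at this depth. An antisense gene, Has2os, overlaps Has2 and has no transcript in the tables analysed here.

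Has1 made up 82.2 ± 3.55% of the summed TPM of the 3 synthase genes in Areg libraries and 79.6 ± 4.395% in controls, Has3 15.1 ± 3.82 and 18.1 ± 3.96%, and Has2 2.71 ± 0.586 and 2.38 ± 1.24%. These shares overlapped between the groups. The summed synthase level was 8.59 ± 0.9485 TPM with Areg and 5.41 ± 0.611 TPM in controls.

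**Figure D2:**
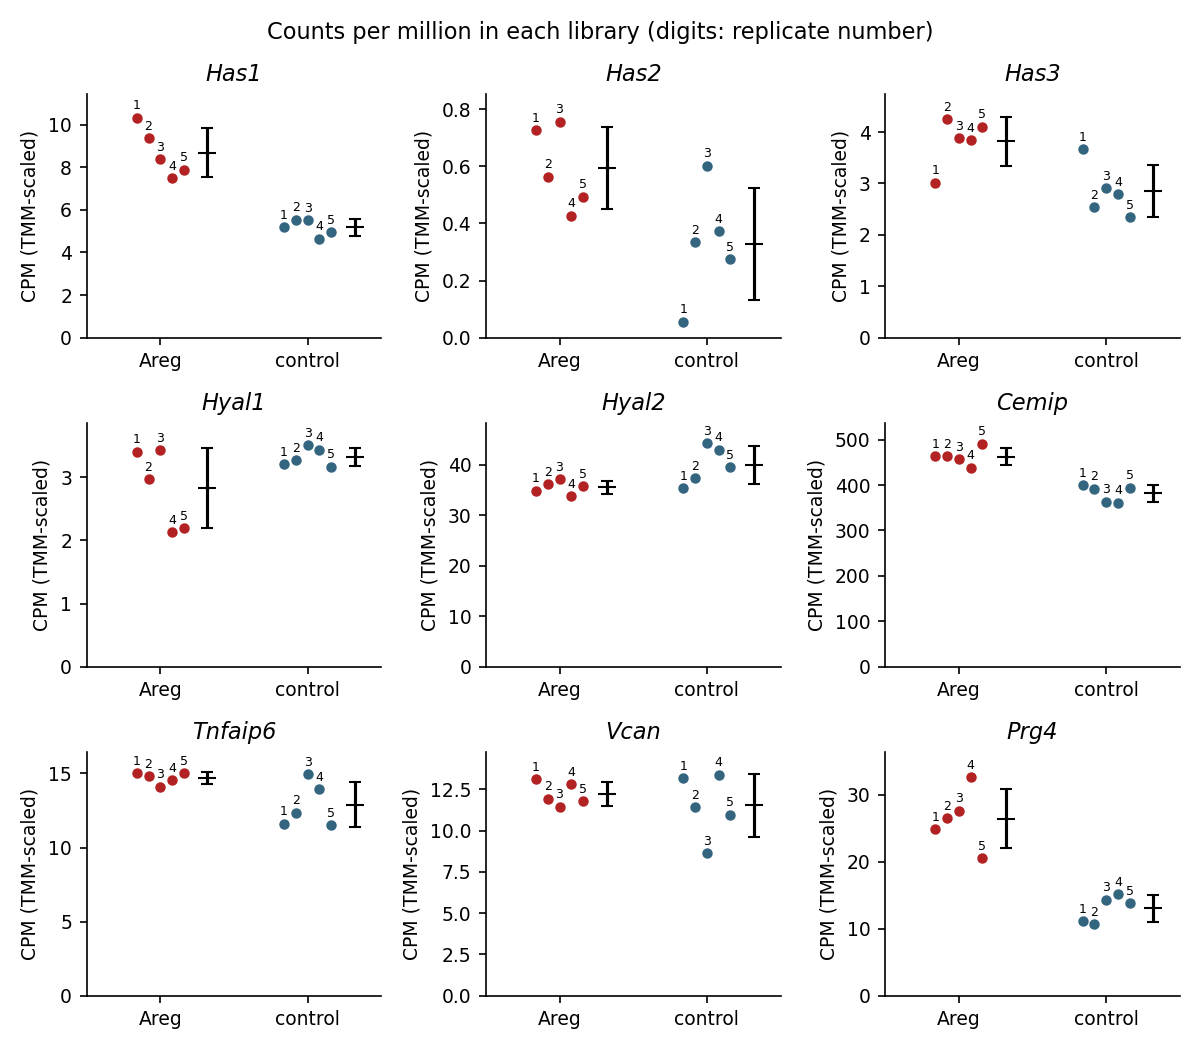
TMM-scaled CPM of each gene in every library, Areg libraries on the left and controls on the right of each panel, digits giving the replicate number and bars the mean and SD (n = 5). Areg libraries all lie above the controls for Has1 (7.48 to 10.3 against 4.65 to 5.55 CPM), Cemip and Prg4, and the groups overlap for the other 6 genes.

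Among the genes that break hyaluronan down, Cemip rose and the hyaluronidase genes were not called. CEMIP binds hyaluronan and is needed for its depolymerisation by skin and synovial fibroblasts. Cemip (ENSMUSG00000052353, chromosome 7, 83932857 to 84086502, minus strand) had 464, 463, 457, 438 and 492 CPM in Areg libraries 1 to 5, against 400.0, 392, 363, 361 and 394 CPM in controls 1 to 5. The groups did not overlap in CPM, and in TPM control 1, at 107.5, lay just above Areg library 4, at 107.2. Its log2 fold change was 0.28 (SE 0.05, 95% interval 0.18 to 0.38, edgeR adjusted p = 0.00117). The call held under all 25 alternatives, at 0.23 to 0.36, with edgeR or limma adjusted p up to 0.0483, and without controls 3 and 4 the log2 fold change was 0.23. The rise was the 1051st largest, so it was small beside those of Has1 and Prg4 but measured on many reads, 3619 to 9066 per library.

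The full-length coding transcript Cemip-201 held 93.2 to 94.9% of the gene's counts with Areg and 92.9 to 94.6% in controls, and 4 retained-intron transcripts shared the rest. The ratio of Cemip to summed synthase TPM was 13.4 ± 1.57 with Areg and 18.0 ± 2.34 in controls. This ratio overlapped between the groups through control 3, at 14.1. It is given as a description with no test.

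The window around the start of Cemip is shown because this most abundant and called gene has a TATA box, TATAAA in capitals, the one match among the 8 motifs. It covers chr7:84086456-84086755 on the minus strand (RefSeq, GRCm38.p6), 5′ to 3′.
Cemip: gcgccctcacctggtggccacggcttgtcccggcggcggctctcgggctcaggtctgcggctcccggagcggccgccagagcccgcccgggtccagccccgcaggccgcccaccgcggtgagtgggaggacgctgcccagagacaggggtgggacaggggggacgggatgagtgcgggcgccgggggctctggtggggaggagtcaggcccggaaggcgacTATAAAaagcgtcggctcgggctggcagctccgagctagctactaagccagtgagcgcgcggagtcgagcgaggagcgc
The match starts 29 bases before the RefSeq start, and the window has a GC content of 73.7%, against 57.0% for Has1. The CRE letters of the Has1 window are not among the letters of the Cemip window.

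Hyal2 encodes a membrane-anchored hyaluronidase that cuts long chains at the cell surface, and Hyal1 the lysosomal enzyme that cuts the pieces further. Hyal2 (chromosome 9, 107567945 to 107572779) had 34.9, 36.2, 37.2, 33.8 and 35.8 CPM in Areg libraries 1 to 5, against 35.4, 37.3, 44.3, 43.0 and 39.6 CPM in controls 1 to 5. The highest values belonged to controls 3 and 4, and the groups overlapped. Hyal2 had a log2 fold change of -0.16 (SE 0.065, 95% interval -0.30 to -0.023, edgeR adjusted p = 0.102). Without control 1 Hyal2 was called lower, at -0.20 (edgeR adjusted p = 0.0355), while without controls 3 and 4 it was -0.068 (edgeR adjusted p = 0.482).

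Hyal1 lies 4147 bases downstream of Hyal2 on the same strand (107576927 to 107581710). It had 2.14 to 3.43 CPM in Areg libraries, with a median library at 2.97, and 3.17 to 3.51 CPM in controls, with a median library at 3.27. Areg libraries 2, 4 and 5 were below every control, while Areg libraries 1 and 3 were within the control range. Its log2 fold change was -0.22 (SE 0.17, 95% interval -0.57 to 0.13, edgeR adjusted p = 0.393). A retained-intron transcript held 48.7 to 80.9% of the gene's counts with Areg and 16.4 to 77.7% in controls, and Naa80 and Hyal3 overlap Hyal1 on the same strand, so its value is uncertain.

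The hyaluronan-binding genes Tnfaip6 and Vcan were not called. Tnfaip6 encodes TSG-6, an inflammation-induced protein that moves heavy chains of inter-alpha-inhibitor onto hyaluronan. Tnfaip6 (ENSMUSG00000053475, chromosome 2, 52038009 to 52056686, plus strand) had 15.02, 14.8, 14.1, 14.5 and 15.01 CPM in Areg libraries 1 to 5, against 11.6, 12.4, 14.96, 13.9 and 11.5 CPM in controls 1 to 5. Controls 1, 2, 4 and 5 lay below every Areg library, and control 3 lay within the Areg range. Tnfaip6 had a log2 fold change of 0.20 (SE 0.086, 95% interval 0.019 to 0.38, edgeR adjusted p = 0.119). Without controls 3 and 4 it was 0.32 and called (edgeR adjusted p = 0.0112), without control 3 alone it was 0.26 and called (edgeR adjusted p = 0.0345), and with the trend in length and GC content removed it was 0.038 (edgeR adjusted p = 0.857). The count of genes called higher was therefore 4 of 8 without controls 3 and 4. In that fit 1147 of all 13693 genes tested were called higher and 1031 lower.

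The window around the start of Tnfaip6 is shown because it holds matches to 3 different motifs, the most among the 6 windows that the table has for these genes. It covers chr2:52037863-52038162 on the plus strand (RefSeq, GRCm38.p6), 5′ to 3′.
Tnfaip6: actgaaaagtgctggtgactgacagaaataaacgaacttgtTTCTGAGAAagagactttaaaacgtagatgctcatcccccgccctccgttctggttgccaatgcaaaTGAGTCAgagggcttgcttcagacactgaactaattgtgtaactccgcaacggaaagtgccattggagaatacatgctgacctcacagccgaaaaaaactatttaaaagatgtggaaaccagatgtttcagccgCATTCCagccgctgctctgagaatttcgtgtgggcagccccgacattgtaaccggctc
Capitals mark, in order, STAT letters starting 209 bases before the RefSeq start, AP-1 letters 142 bases before it and TEAD letters on the opposite strand 8 bases before it. This RefSeq start lies downstream of the gene start given above, 52038009. Counted from that gene start, the TEAD letters lie inside the gene and the others nearer to its start. None of these matches overlaps another. The Hyal2 window holds overlapping NF-kappaB and TEAD matches, and those of Hyal1 and Vcan hold none of the 8 motifs.

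Vcan encodes versican, a large chondroitin sulfate proteoglycan whose link domain binds hyaluronan. Vcan (chromosome 13, 89655312 to 89742509) had 13.1, 11.9, 11.4, 12.8 and 11.8 CPM in Areg libraries 1 to 5, against 13.2, 11.4, 8.64, 13.4 and 10.97 CPM in controls 1 to 5. The groups overlapped almost entirely, with control 3 lowest. Vcan had a log2 fold change of 0.076 (SE 0.11, 95% interval -0.15 to 0.30, edgeR adjusted p = 0.667), and its sign was negative on both TPM scales and with the length correction.

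Versican RNA is spliced to keep or skip large exons that encode the chondroitin sulfate attachment regions. Vcan-206, with a single large exon of 5217 bases, held 42.3 to 68.2% of the gene's counts in Areg libraries and 58.0 to 71.8% in controls. Vcan-203, which keeps both large exons, held 26.2 to 55.4% and 26.3 to 38.0%. Vcan-202, with only the large exon of 2880 bases, was listed at 0 in every library. The ranges overlapped, and the difference in transcript use was not tested.

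Prg4 had the largest fold change of the 9 genes. It encodes lubricin, a mucin-like glycoprotein that lubricates joint surfaces and other sliding tissues and can bind the hyaluronan receptor CD44. Prg4 (ENSMUSG00000006014, chromosome 1, 150449412 to 150466165, minus strand) had 24.9, 26.5, 27.6, 32.7 and 20.6 CPM in Areg libraries 1 to 5, against 11.2, 10.7, 14.4, 15.2 and 13.8 CPM in controls 1 to 5. The lowest Areg library lay above the highest control. The means were 26.5 ± 4.39 and 13.0 ± 1.99 CPM, with a log2 fold change of 1.03 (SE 0.12, 95% interval 0.77 to 1.29, edgeR adjusted p = 8.39e-05), the 33rd largest rise of the 13362. The call held under all 25 alternatives, at 0.91 to 1.18, and without controls 3 and 4 the value was 1.16.

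Prg4-206, a transcript whose longest exon spans 2286 bases, held 89.8 to 93.6% of the counts with Areg and 82.1 to 98.6% in controls. Prg4-202, whose longest exon spans 919 bases, held 5.44 to 10.2% and 0.101 to 17.4%. The end of Prg4 overlaps the end of Tpr on the opposite strand, so some reads there cannot be assigned without strand.

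Hyaluronan synthases and lubricin are also made by mesothelial cells and fibroblasts, so markers of those cells are given beside Has1 and Prg4. The 12 mesothelial markers summed to 6.005 to 10.45 TPM in Areg libraries and 8.23 to 11.7 TPM in controls, and 6 of them stayed under 1 TPM in every library, while none was at 0 throughout. The highest were Igfbp6, at 2.14 ± 0.756 and 3.20 ± 0.784 TPM, and Wt1, at 1.60 ± 0.410 and 1.85 ± 0.635 TPM. Of the 5 tested, edgeR called 0, with 0 at an unadjusted p under 0.05 and 0 by DESeq2. Their log2 fold changes ran in both directions, 2 higher and 3 lower, from -0.77 for Krt19 to 0.30 for Msln. The 10 portal fibroblast markers summed to 16.4 to 18.1 TPM with Areg and 14.5 to 21.4 TPM in controls, led by Thy1 and Dpt. The 8 portal fibroblast markers tested were not called by edgeR (0 higher and 1 lower at an unadjusted p under 0.05, and 0 by DESeq2), and their log2 fold changes ran in both directions, from -0.59 for Eln to 0.39 for Dpt. The part of mesothelial cells and fibroblasts in the results on Has1 and Prg4 was not tested.

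**Figure D3:**
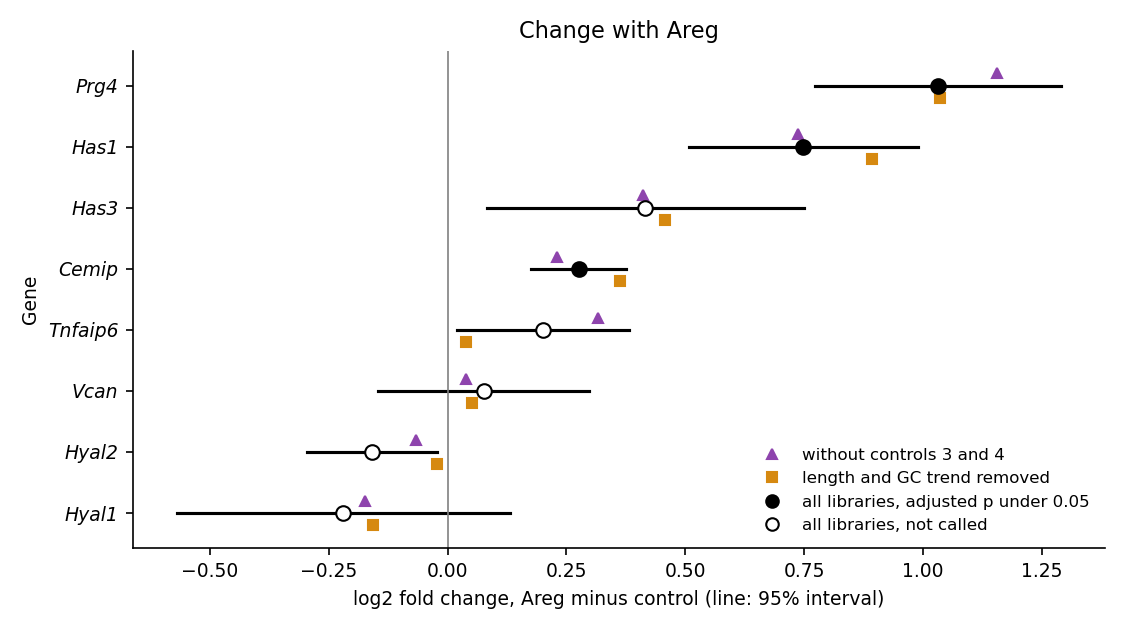
Log2 fold change, Areg minus control, of the 8 genes that passed the filter, with its 95% interval (circles, filled where the adjusted p was under 0.05), and the value without controls 3 and 4 (triangles) and after the library's trend with length and GC content was taken out (squares). Prg4, Has1 and Cemip keep their place to the right of 0 in all 3, whereas Tnfaip6 lies between 0.038 and 0.32.

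Over 6 lists of the wider hyaluronan pathway, 57 of 75 genes were tested, of which 6 (10.5%) were called higher, 7 (12.3%) lower and 44 neither. These shares are near those of all genes tested, 8.34% higher and 8.32% lower, so the calls below describe single genes and not the pathway. Among 10 genes that make or turn over the sugar precursors of hyaluronan, all tested, 2 rose, 2 fell and 6 were not called (median log2 fold change 0.081). Gnpnat1, which acetylates glucosamine-6-phosphate on the way to UDP-N-acetylglucosamine, had 47.8 ± 2.56 CPM with Areg and 34.7 ± 4.96 CPM in controls (log2 fold change 0.45, edgeR adjusted p = 0.00149). Uap1, which makes UDP-N-acetylglucosamine itself, rose by 0.17 on the log2 scale (edgeR adjusted p = 0.0246), a call lost under 8 of the 25 alternatives, among them without Areg library 2, 4 or 5. Amdhd2, a deacetylase that runs the opposite way, and Uap1l1, a relative of Uap1, had log2 fold changes of -0.41 and -0.40 (edgeR adjusted p = 0.00262 and 0.000686), with calls lost under 4 and 2 alternatives. Ugdh, which makes UDP-glucuronic acid, was not called, at 0.054 (edgeR adjusted p = 0.465).

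Of 8 receptor genes, all tested, 1 rose, 1 fell and 6 were not called (median -0.059). At an unadjusted p under 0.05 the counts were 1 higher and 4 lower, and DESeq2 called 1 higher and 3 lower. In CPM 2 lay wholly above and 2 wholly below the controls, as 7.64% and 7.06% of all genes tested did. Cd44, the main hyaluronan receptor of many mesenchymal and blood cells, had 269 ± 14.4 CPM with Areg and 224 ± 18.9 CPM in controls (log2 fold change 0.26, edgeR adjusted p = 0.00587), a call lost on both TPM scales and with the length correction. Stab1, a scavenger receptor of endothelium and macrophages, had 691 ± 36.4 and 847 ± 62.7 CPM (log2 fold change -0.29, edgeR adjusted p = 0.00236), and was at -0.10 and not called with the trend in length and GC content removed. The count of receptor genes called lower was 4 without controls 3 and 4, and 2 without control 3 or without Areg library 3. Stab2, which clears hyaluronan from the sinusoid, and Lyve1, which binds it, both markers of liver endothelium, were not called. Lyve1 had 1055 ± 28.6 CPM with Areg and 995 ± 24.7 CPM in controls (log2 fold change 0.084, edgeR adjusted p = 0.191), and in TPM it had 762 ± 21.0 and 783 ± 37.0. Stab2 had 246 ± 7.58 and 272 ± 19.9 CPM (log2 fold change -0.15, edgeR adjusted p = 0.0567). In CPM all Areg libraries lay above all controls for Lyve1 and below them for Stab2. The endothelial marker sums given above belong beside these receptors, and their part in the fall of Stab1 was not tested.

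Among 10 other genes of hyaluronan breakdown, 5 were tested, of which 1 rose, 1 fell and 3 were not called (median -0.13). Cemip2, a transmembrane relative of Cemip that cuts hyaluronan at the cell surface in mouse, had 550.3 ± 20.5 CPM with Areg and 443 ± 42.6 CPM in controls (log2 fold change 0.31, edgeR adjusted p = 0.00216), a call lost under 2 of the 25 alternatives, both on TPM scales. Hexa, a lysosomal hexosaminidase subunit, fell by 0.19 on the log2 scale (edgeR adjusted p = 0.0254), a call lost under 8 alternatives, among them without Areg library 1, 3, 4 or 5. The sperm and germ cell hyaluronidase genes Spam1 and Hyal5, and Hyal4 and Hyal6, were listed at 0 in every library.

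Among 19 other binding genes, 9 were tested and edgeR called 0, with 2 higher and 0 lower at an unadjusted p under 0.05 and 0 by DESeq2 (median -0.066). Without control 2, without control 3 and without controls 3 and 4, 1 was called higher. The most abundant were C1qbp, at 183 ± 6.07 and 169 ± 18.8 TPM, and Ambp, a light chain of inter-alpha-inhibitor made by hepatocytes, at 80.9 ± 8.95 and 87.7 ± 16.8 TPM. Of 6 genes for proteases reported to cleave versican, 5 were tested and 1, Adamts4, rose (log2 fold change 0.17, edgeR adjusted p = 0.0270), and the list's median was 0.13. The groups overlapped for Adamts4, 2 genes of the list were called higher without control 1, and the Adamts4 call was lost without Areg library 2, 3 or 4, without control 5 and on both TPM scales.

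Of 22 genes for the chondroitin chains that versican carries, 20 were tested, of which 1 rose, 3 fell and 16 were not called (median -0.056). At an unadjusted p under 0.05 the counts were 3 higher and 8 lower, and DESeq2 called 1 higher and 4 lower. The 22 genes summed to 494 to 535.6 TPM in Areg libraries and 557.5 to 613.7 TPM in controls. Chpf2 was the most abundant of them, at 125 ± 6.06 and 168 ± 8.27 TPM. Chst11, a chondroitin sulfotransferase, rose by 0.32 (edgeR adjusted p = 0.00205). Chpf2, a chondroitin polymerising factor, had 270.4 ± 13.03 CPM with Areg and 357 ± 30.5 CPM in controls (log2 fold change -0.40, edgeR adjusted p = 0.000285). Xylt2 and B4galt7, which build the linker of the chain, had log2 fold changes of -0.49 and -0.32 (edgeR adjusted p = 0.00166 and 0.00400), that of Xylt2 being lost under 3 alternatives. The number of falls was 5 without control 5, and the number of rises was 2 without control 1 or without control 2.

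**Figure D4:**
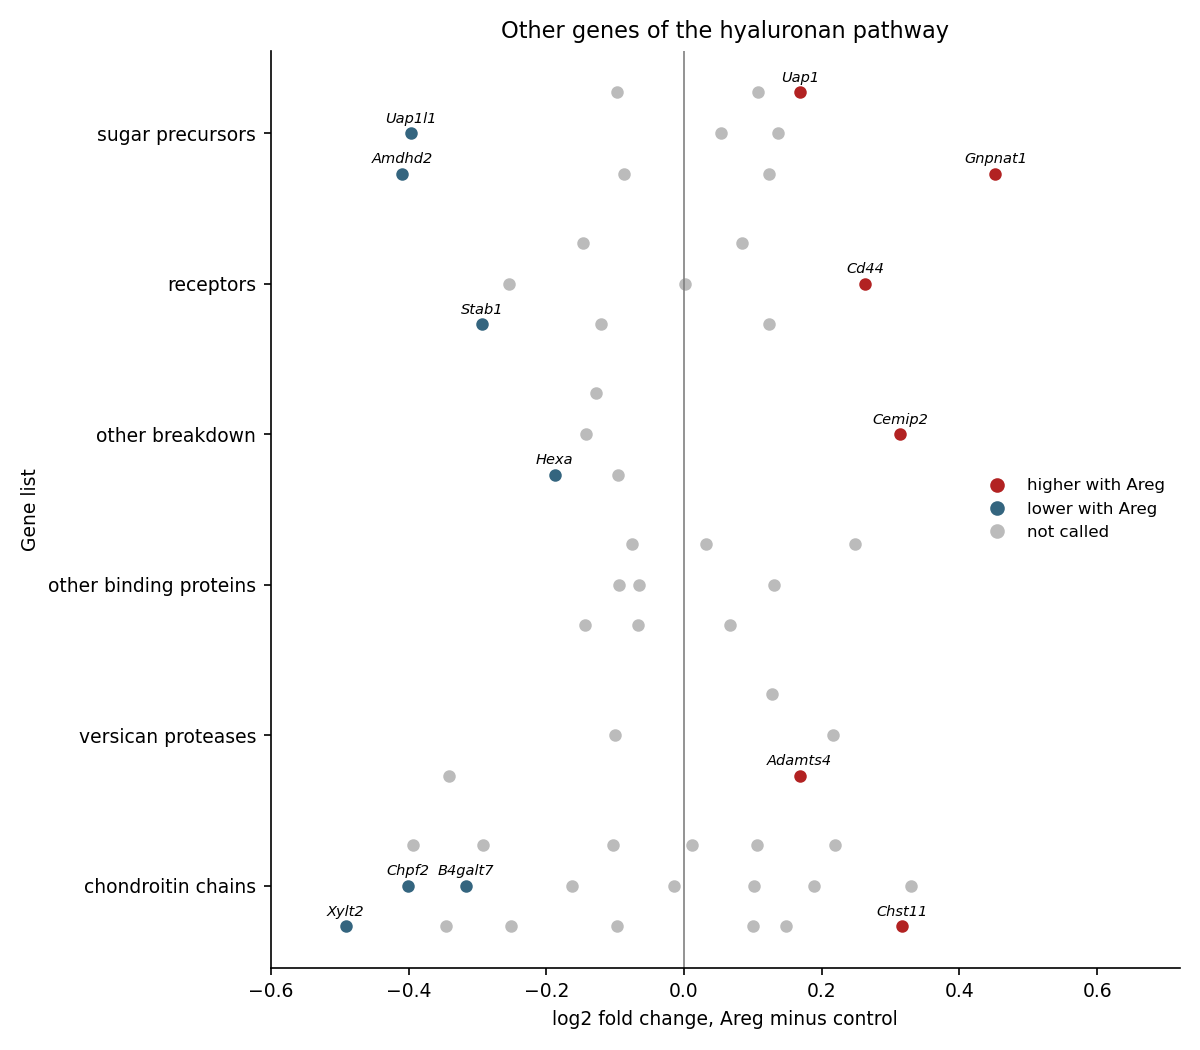
Log2 fold change, Areg minus control, of the tested genes in 6 lists of the hyaluronan pathway, called genes in colour with their names and genes not called in grey. Called genes lie on both sides of 0 in the precursor, receptor, breakdown and chondroitin lists, from Xylt2 at -0.49 to Gnpnat1 at 0.45.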

How the data were processed

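For each of 10 libraries the deposited tables give expected counts (estimated, not always whole) and TPM of 118489 transcripts, as the authors' kallisto wrote them per the file headers. Tools listed in the submitters' processing notes are bcl2fastq 2.19, kallisto 0.44.0 and DESeq2, with the build GRCm38.p6, and the labels' protocols name poly-A selection and a TruSeq kit. Neither the transcript set nor the strand setting is given in the sources used here.

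Transcripts were joined to GENCODE M21 genes (116816 matched), and the 1673 others, with 0.736 to 0.778% of counts, were left out. Counts were summed per gene and rounded. Areg was compared with control by edgeR 4.0.16 (R 4.3.3, robust quasi-likelihood, TMM, filterByExpr with a minimum count of 10, Benjamini-Hochberg over 13362 genes). Standard errors were derived from the F statistic. On simulated counts (5 runs, 200 changed genes of 13362), the test recovered 41.2% of 1.25-fold, 74.8% of 1.5-fold and 89.6% of 2-fold changes, with 5.75% false calls. A planned limma fit of transcript use within genes recovered 16.5% of 200 simulated 2-fold changes among 7958 genes, with 23.3% false calls, and is not reported. Limma 3.58.1 and DESeq2 1.42.0 served as alternatives.

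The 9 genes and all lists were chosen with earlier results of these data known. All 9 genes are described, and of each pathway list every called gene, or the most abundant pair where none was called. Ugdh, Lyve1, Stab2, Spam1, Hyal4, Hyal5 and Hyal6 were added after their values were seen. The marker lists were described by sums and their most abundant pair: Fcgr2b beside Cdh5, Alb and Apoa2, Cd5l and Lyz2. Those of lymphocytes (8 genes, led by Cd79b and Cd79a) summed to 3.72 to 5.63 TPM with Areg and 3.20 to 8.21 TPM in controls. Ngfr, Epcam, Sox9, Msln and Eln were also named after their values were seen. Promoter windows came from a RefSeq table of GRCm38.p6, which held 6 of the 9 genes.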

Additional observations from a re-analysis of the deposited data

How the results depend on the processing

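Has1, Cemip and Prg4 kept their direction and their call under all 25 alternatives, and the other 5 tested genes kept theirs except as follows. The log2 fold change of Vcan, 0.076, was -0.040 with the transcript length offset, -0.070 on log2(TPM + 1) and -0.097 on log2(TPM + 0.1), where Vcan was not called either. Tnfaip6 was called without controls 3 and 4, at 0.32. Leaving out 1 library at a time gave log2 fold changes of 0.16 to 0.26 for Tnfaip6, 0.35 to 0.54 for Has3 and -0.20 to -0.12 for Hyal2, with Has3 and Hyal2 called without control 1 and Tnfaip6 without control 3. It gave 3 to 4 of these genes called higher and 0 to 1 called lower, and 1364 (without Areg library 2) to 2314 genes called in all, against 2226 with all libraries. Over all genes, 1180 of 13330 were called higher and 1134 lower without control 1. Without control 3, 1049 of 13559 were called higher and 933 lower. The count over all genes was 1168 with the length offset, 856 on log2(TPM + 1) and 868 on log2(TPM + 0.1), and the cause was not tested.

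Whether the replicate numbers shared by the groups pair the libraries is not in the labels. Same-numbered deviations correlated at -0.046 to 0.144, and 4 of 10 libraries were closest to their own number. With so few libraries, and with controls 3 and 4 standing apart, these values cannot settle it. With the replicate number as a block 2357 genes were called, among the 9 genes the same 3 were called higher and 0 lower, and the log2 fold changes were 0.75 for Has1, 0.28 for Cemip and 1.02 for Prg4. Depth limits Has2 most, with at most 15 reads in a library. The alternatives planned for the fit of transcript use were not run, since that fit is not reported.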
